A study of Homo sapiens with 4 samples.

Results

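The microRNA processing and Argonaute genes described here are 10 genes looked up by name in a transient transcriptome sequencing (TT-seq) table of 10147 genes, and 6 of the 10 were listed. The listed members were *DROSHA*, *XPO5*, *AGO2*, *TNRC6A*, *TNRC6B* and *TNRC6C*. *DGCR8*, *DICER1*, *AGO1* and *AGO3* were not analysed here. The rule for members used gene names and no threshold on a measured value. TT-seq isolates RNA that took up 4-thiouridine (4sU) in a brief labelling step, so its counts follow RNA synthesis and not the amount of stored transcript. The samples were K562, an established human erythroleukemia line, edited so that IWS1 carries a degradation tag (dTAG) at its N-terminus. IWS1 is a factor that travels with elongating RNA polymerase II, and the ligand dTAG7 causes breakdown of the tagged protein. All samples carried this tag. Control cells received the solvent dimethyl sulfoxide (DMSO) for 1 h, and dIWS1 cells received 500 nM dTAG7 for the same time, and in both the labelling with 500 µM 4sU came next and lasted 5 min. There were 2 samples labelled control and 2 labelled dIWS1.

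The microRNA pathway begins in the nucleus. There the RNase III enzyme DROSHA, with its partner DGCR8, cuts a hairpin out of a primary transcript. Exportin-5, the product of *XPO5*, carries the hairpin to the cytoplasm, and DICER1 trims it to a duplex. An Argonaute protein then keeps 1 strand of the duplex as its guide. Proteins of the TNRC6 family (GW182 proteins) bind Argonaute and recruit the deadenylase complexes that shorten the tail of the target mRNA. AGO2 is the human Argonaute best known for cutting a well-matched target.

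The deposited table gave a mean normalized count per gene, from which the whole reads of each library column were recovered. It contained 1 control column, entered 2 times, and 2 different dIWS1 columns, called column 1 and column 2 because the table gives them no replicate number. The control was counted as 1 sample. The columns held 28352252 (control), 19715709 (column 1) and 19942890 (column 2) reads in genes. A normalized count is a read count divided by the column's spike-in size factor, and a log2 ratio compares a dIWS1 column with the control column. All 12 of 12 erythroid and K562 marker genes looked up were present, with mean normalized counts between 115 and 14815. *IWS1* itself, whose RNA does not measure the loss of its protein, had 3684 reads in the control against 2334 and 2427 in the dIWS1 columns. Since libraries were made from pools of cells, less RNA per cell and fewer cells contributing RNA cannot be told apart.

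The start regions of 4 members are shown because they give the sequence context in which synthesis of these genes begins, and because *DROSHA* and *XPO5* each share theirs with a neighbouring gene. They come from RefSeq promoter windows (GRCh38.p14) and are written 5′ to 3′ on the strand of the member. None overlapped an exon of GENCODE release 44. Capitals mark the motifs GGGCGG (the GC box) and CCGGAAG (a core bound by ETS factors), or their reverse complements. The 90 bases upstream of *DROSHA* (chr5:31532197-31532286, minus strand) hold no capitals, the 146 bases at *XPO5* (chr6:43576039-43576184, minus strand) fill the whole interval to its neighbour, and the stretches at *TNRC6A* (chr16:24729531-24729650) and *TNRC6B* (chr22:40044664-40044816) are on the plus strand.
DROSHA: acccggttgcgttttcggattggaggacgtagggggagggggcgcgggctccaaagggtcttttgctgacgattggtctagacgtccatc
XPO5: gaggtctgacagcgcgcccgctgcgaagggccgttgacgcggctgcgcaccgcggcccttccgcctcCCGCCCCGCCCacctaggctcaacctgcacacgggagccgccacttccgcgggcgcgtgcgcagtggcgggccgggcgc
TNRC6A: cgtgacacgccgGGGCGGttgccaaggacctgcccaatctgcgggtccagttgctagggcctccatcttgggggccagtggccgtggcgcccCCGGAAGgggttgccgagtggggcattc
TNRC6B: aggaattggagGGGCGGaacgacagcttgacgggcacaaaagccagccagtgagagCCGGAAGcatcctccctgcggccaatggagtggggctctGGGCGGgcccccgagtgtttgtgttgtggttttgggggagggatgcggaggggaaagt

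The search for motifs covered both strands of the whole windows, which run from 250 bases before a start site to 50 after it. GGGCGG was present in 45.0% of all 35116 windows and in 67.8% of the windows of tested genes. It was found in the windows of *DROSHA* (−211 and 21, the positions of its first base counted with the start site as 0), *XPO5* (−79 and −74, overlapping by 1 base), *TNRC6A* (−108) and *TNRC6B* (−159 and −75). CCGGAAG, present in 10.3% of all windows and 19.0% of those of tested genes, was found at −28 and 1 in *TNRC6A* and at −114 in *TNRC6B*. *TNRC6C* has 4 windows, of which 2 hold GGGCGG, and 1 of these also holds CACGTG (the E-box) at −105. CACGTG was present in 7.26% of all windows and 9.75% of those of tested genes. Neither TATAAA (the TATA box, 11.5% of all windows and 5.87% of those of tested genes) nor the palindromic NRF1 motif (1.24% and 2.15%) occurred in a window of these 5 genes. The *TNRC6A* window lies inside the RefSeq span of that gene, at a start site downstream of the first. *AGO2* had no window in the table.

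RNA synthesis of all 6 listed members was lower in dIWS1 cells than in control cells. Each member was below the control column in both dIWS1 columns, which also held for 93.0% of the 9892 genes tested. All 6 were called lower (limma voom, Benjamini-Hochberg adjusted p under 0.05), against 65.7% of all genes tested called lower and 0.101% called higher. The median log2 fold change (dIWS1/control) of the 6 genes was −0.60, with −0.68 in column 1 and −0.53 in column 2. The median over all genes tested was −0.42, with −0.47 in column 1 and −0.37 in column 2. The 6 values ran from −0.46 for *TNRC6A* to −0.78 for *TNRC6C*, all below the median gene.

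**Figure D1:**
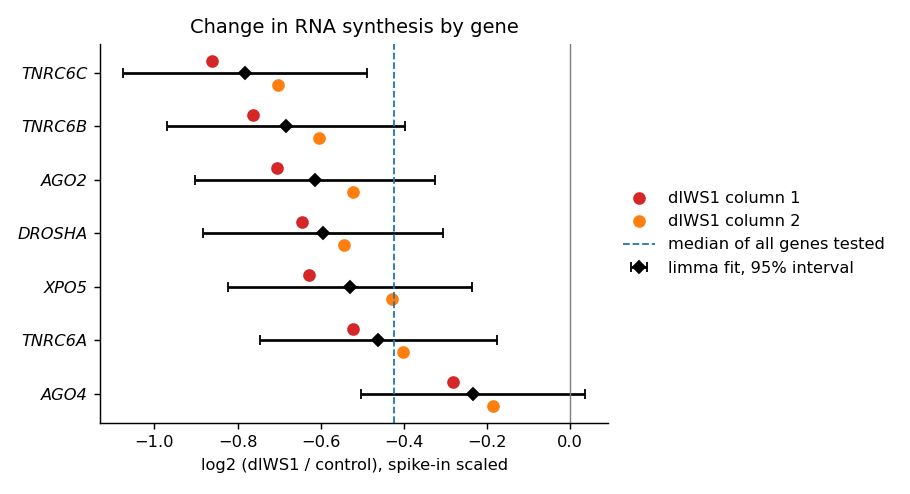
Log2 ratios of dIWS1 over control on the spike-in scale (x axis) for the 6 listed members and AGO4. Circles are the 2 dIWS1 columns, diamonds the limma estimate with its 95% interval, the dashed line is the median of all genes tested (−0.42), and the intervals of the 6 members stay below 0 while that of AGO4 reaches 0.04.

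*DROSHA* lies on chromosome 5 from 31400494 to 31532093, on the minus strand (gene identifier ENSG00000113360.17 in GENCODE, 36 exons in the canonical transcript). Of its reads 13127 came from the control, 8253 from dIWS1 column 1 and 8206 from column 2. These are 13002, 8309 and 8925 normalized counts, so both dIWS1 columns were well below the control column. The log2 fold change was −0.59 (SE 0.147, adjusted p = 2.27e-04, limma voom), that is, 66.2% of the control level. Of the genes tested, 25.1% had a lower log2 fold change.

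*XPO5* lies on chromosome 6 from 43522334 to 43576038, also on the minus strand, with 32 exons. The control gave 7587 reads of this gene against 4830 and 5133 in columns 1 and 2, or 7515, 4863 and 5583 normalized counts. Its dIWS1 columns were further apart than those of the other members, with log2 ratios of −0.63 and −0.43. Its log2 fold change was −0.53 (SE 0.150, adjusted p = 0.00125, limma voom). Between *XPO5* and *DROSHA*, the log2 ratios differed by 0.02 in column 1 (95% interval from counting error alone −0.05 to 0.08) and by 0.11 in column 2 (0.05 to 0.18). The log2 ratios of *XPO5* and *DROSHA* thus differed beyond counting error in column 2 and not in column 1, with the same control column in both.

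*AGO2*, the only member of the Argonaute family among the 6, lies on chromosome 8 from 140520156 to 140642313, on the minus strand (19 exons). There were 11609 reads in the control, then 7002 and 7364 in columns 1 and 2, which are 11499, 7050 and 8009 normalized counts. Both dIWS1 columns were below the control column, at 61.3% and 69.7% of it. The fit gave a log2 fold change of −0.61 (SE 0.148, adjusted p = 1.55e-04, limma voom).

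*AGO4*, an Argonaute paralog without the cutting activity of AGO2, was not a member but belonged to the list of other pathway genes. It is described because *AGO1* and *AGO3* gave no values, a choice made after its values were seen. The control held 1282 of its reads, column 1 held 1037 and column 2 held 1027, or 1270, 1044 and 1117 normalized counts. The log2 fold change was −0.23 (SE 0.137, adjusted p = 0.117, limma voom), and the gene was not called. With the control column entered 2 times, as in the deposited means, *AGO4* was called lower at the same −0.23 (adjusted p = 0.0157). The log2 ratio of *AGO4* was above that of *AGO2* by 0.42 in column 1 (95% counting interval 0.30 to 0.55) and by 0.34 in column 2 (0.21 to 0.46). The control column was the same in both. These intervals cover counting error only. The SE in the fit was 0.137 for *AGO4* and 0.148 for *AGO2*. Each SE includes the gap between the dIWS1 columns, so it is not the error of this difference, which was not tested. *AGO4* spans 50.3 kb and *AGO2* 122 kb, and the part of gene length in this difference was not tested.

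The TNRC6 genes, which encode the silencing partners of Argonaute, gave both the smallest and the largest fall among the members. *TNRC6A* (chromosome 16, 24610205 to 24826218, plus strand, 25 exons) had 15535 reads in the control and 10650 and 10715 in columns 1 and 2. In normalized counts these are 15387, 10723 and 11654, which put the dIWS1 columns at 69.7% and 75.7% of the control column. The log2 fold change was −0.46 (SE 0.146, adjusted p = 0.00376, limma voom), the closest of the 6 to the value of the median gene.

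*TNRC6B* (chromosome 22, 40044834 to 40335808, plus strand, 23 exons) is the longest of the members. Its reads were 15320, 8879 and 9185 in the control column, column 1 and column 2, or 15174, 8940 and 9990 normalized counts. Although its control column was close to that of *TNRC6A*, its dIWS1 columns were lower. The fit gave a log2 fold change of −0.68 (SE 0.146, adjusted p = 2.12e-05, limma voom).

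*TNRC6C* (chromosome 17, 77957557 to 78108835, plus strand, 23 exons) had the fewest reads of the members, with 3716 in the control and 2013 and 2078 in columns 1 and 2. These are 3681, 2027 and 2260 normalized counts, and the dIWS1 columns stood at 55.1% and 61.4% of the control column. *TNRC6C* had a log2 fold change of −0.78 (SE 0.150, adjusted p = 2.16e-06, limma voom). Of the genes tested, 9.27% had a lower log2 fold change.

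Within the TNRC6 family the order of the falls was the same in both dIWS1 columns. The log2 ratio of *TNRC6C* was below that of *TNRC6A* by an amount of −0.34 in column 1 (95% counting interval −0.43 to −0.25) and −0.30 in column 2 (−0.39 to −0.22). For *TNRC6B* the difference from *TNRC6A* was −0.24 in column 1 (−0.29 to −0.19) and −0.20 in column 2 (−0.25 to −0.15). *TNRC6C* and *TNRC6B* were closer, with a difference of −0.10 in column 1 (−0.18 to −0.01) and in column 2 (−0.19 to −0.01). These intervals cover counting error only, and both columns were divided by the same control column, so they are no test over replicates. The SE of each gene in the fit was near 0.15. It includes the gap between the dIWS1 columns, and the part shared by genes cancels in a difference within a column. The SE is therefore not the error of such a difference, and the error over replicates is not known. The fit tested none of these differences. Those between *TNRC6B* and *TNRC6C* were close to 0.09, the SD over genes of the gap between the dIWS1 columns (mean above 1000).

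In every member, column 1 was below column 2, by 0.10 on the log2 scale in *DROSHA* to 0.20 in *XPO5*. The median distance of column 1 from column 2 over the 4905 genes with a mean above 1000 was −0.13, with an SD over genes of 0.09. In all 6 members the smaller of the 2 falls was still more than 1.5 times the gap between the dIWS1 columns, which was also the case for 6502 of the 9892 genes tested (65.7%).

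Recentring on the median gene left no member called. With the libraries recentred on the median gene, 5.38% of all genes tested were called lower and 2.67% higher, and 0 of the 6 members were called in either direction (limma voom). *TNRC6C*, at −0.37, had an unadjusted p of 0.0131 (adjusted p = 0.107, limma voom), and the other members had an unadjusted p above 0.05. The recentred log2 fold changes of the others were −0.27 for *TNRC6B* (adjusted p = 0.253), −0.20 for *AGO2* (adjusted p = 0.431), −0.18 for *DROSHA* (adjusted p = 0.479), −0.12 for *XPO5* (adjusted p = 0.679) and −0.05 for *TNRC6A* (adjusted p = 0.873). The calls of the members as lower therefore held on the spike-in scale and not after this recentring. It shifted both dIWS1 columns by the same amount, so the gap between them stayed in the SE. That gap had a median of −0.13 over the 4905 genes with a mean above 1000. After recentring *AGO4* was at 0.18 (adjusted p = 0.464, limma voom), on the other side of 0. Recentring moved the median of all genes by 0.41 on the log2 scale, to −0.01. Scaling by the total reads in genes, which scales each dIWS1 column on its own, moved it by 0.44, to 0.01. With total reads, 1483 genes were called lower and 1895 higher, the 6 members stayed below 0 and 4 of them were called lower, and *AGO4* was at 0.20 (adjusted p = 0.0383, called higher).

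Levels between genes were compared as normalized counts per kb of RefSeq gene span. In the control column *XPO5* was highest with 140 counts per kb, followed by *DROSHA* with 98.8, *AGO2* with 94.1, *TNRC6A* with 71.2, *TNRC6B* with 52.2 and *TNRC6C* with 24.3. In dIWS1 the order of the 6 was the same, from 97.3 ± 9.48 counts per kb for *XPO5* (SD, n = 2) over 65.5 ± 3.31 for *DROSHA*, 61.6 ± 5.55 for *AGO2*, 51.8 ± 3.05 for *TNRC6A* and 32.5 ± 2.55 for *TNRC6B* to 14.2 ± 1.09 for *TNRC6C*. *DROSHA* and *AGO2* were neighbours whose spreads over the dIWS1 columns overlapped. Within each column *DROSHA* was above *AGO2*, at 63.1 against 57.7 in column 1 and 67.8 against 65.6 in column 2. This difference was not tested. *AGO4* had 25.3 counts per kb in the control column, near the level of *TNRC6C*, and 21.5 ± 1.03 in dIWS1, above it.

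**Figure D2:**
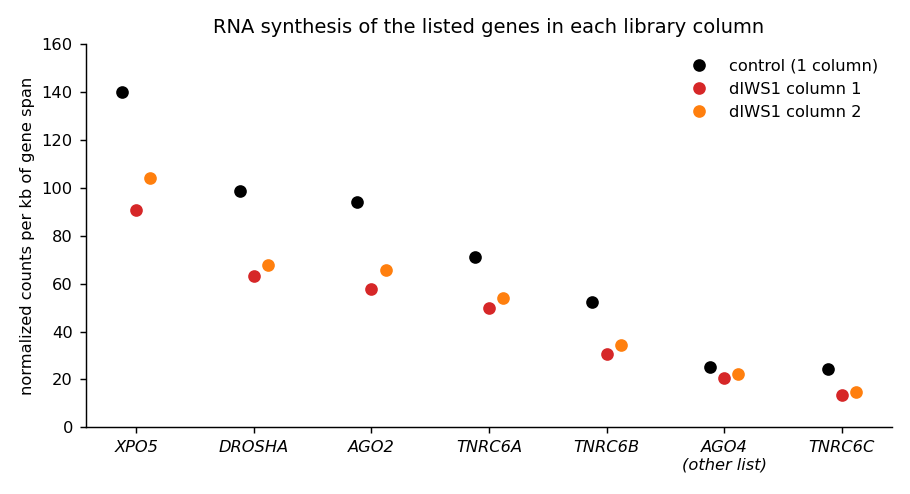
Normalized counts per kb of RefSeq gene span (y axis, from 0) in the control column and the 2 dIWS1 columns for each listed member and for AGO4 from the list of other pathway genes. In the 6 members both dIWS1 points lie below the control point, and the control values run from 140 for XPO5 to 24.3 for TNRC6C.

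This order depended on the length used. Per kb of exon, *DROSHA* was highest in the control column with 1671 counts and *XPO5* had 886. Per kb of the canonical transcript's span, which was tried only once the values were known, *TNRC6A* was highest with 159 counts, since that transcript covers 96.6 kb of a gene of 216 kb. *TNRC6C* was the lowest of the 6 with each of these lengths, and TT-seq counts come from introns as well as exons.

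Most of the members are long genes. Of the 6, 5 span more than 100 kb, from 122 kb for *AGO2* to 291 kb for *TNRC6B*, while *XPO5* spans 53.7 kb. The median span of the members was 141 kb, against 28.1 kb for all genes tested. Among the 1241 tested genes of 100 to 300 kb whose mean normalized count was 1000 or more, 87.7% were called lower and the median log2 fold change was −0.53 (quartiles −0.64 and −0.41). *DROSHA*, *AGO2* and *TNRC6A* were within these quartiles, and *TNRC6B* and *TNRC6C* were below them. Among the 1166 genes of 40 to 70 kb with such a mean, the median was −0.32 (quartiles −0.48 and −0.21) and 52.1% were called lower, and *XPO5* at −0.53 was below that lower quartile. The classes were set with the values in view, so the comparison is a description. The part of gene length in the members' falls was not tested.

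**Figure D3:**
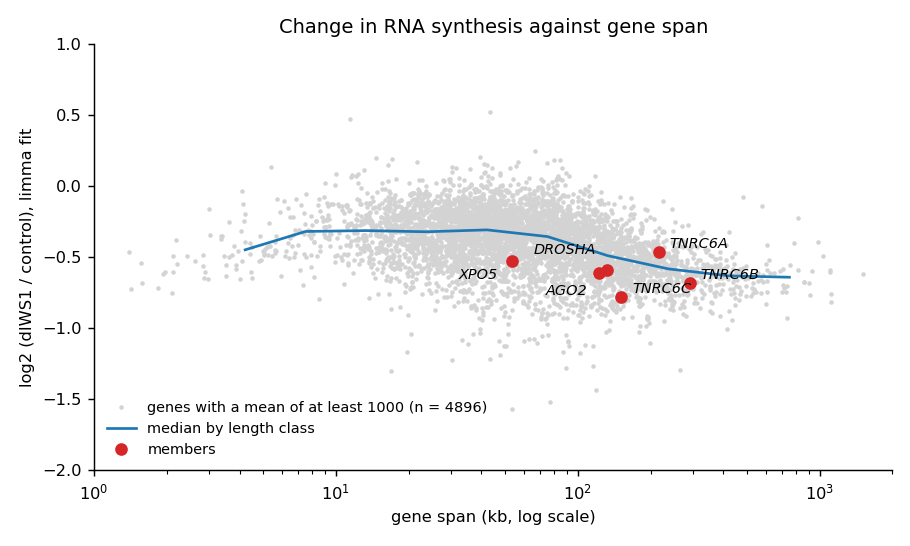
Log2 fold change (y axis) against RefSeq gene span in kb (x axis, log scale) for 4896 tested genes whose mean normalized count was 1000 or more, 4 of them outside the axes. Grey points are genes, the line is the median by length class with at least 20 genes, and the red points of the 6 members lie at −0.46 to −0.78, with TNRC6A above the line and the others below it.

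*DROSHA* and *XPO5* each start next to a gene that is transcribed away from them. The start of *DROSHA* is separated by 207 bases from that of *C5orf22*, a gene of 22.8 kb on the opposite strand. *C5orf22* had 1237 reads in the control and 979 and 955 in columns 1 and 2. Its log2 fold change of −0.28 (SE 0.136, adjusted p = 0.0632, limma voom) did not pass the threshold. The log2 ratio of *DROSHA* differed from that of *C5orf22* by −0.33 in column 1 (95% counting interval −0.46 to −0.20) and by −0.30 in column 2 (−0.43 to −0.18). The log2 ratios of *DROSHA* and *C5orf22* thus differed beyond counting error in both columns. Both columns were divided by the same control column, so this is no test over replicates. In the fit the SE was 0.147 for *DROSHA* and 0.136 for *C5orf22*. Each SE includes the gap between the dIWS1 columns, so it is not the error of their difference, which was not tested.

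*XPO5* is separated by the 146 bases printed above from *POLH*, which encodes the translesion DNA polymerase eta and spans 44.3 kb. *POLH* had 1327, 975 and 937 reads in the control column, column 1 and column 2, and fell (log2 fold change −0.39, SE 0.137, adjusted p = 0.00854, limma voom). The log2 ratio of *XPO5* differed from that of *POLH* by −0.21 in column 1 (−0.34 to −0.08) and by −0.06 in column 2 (−0.19 to 0.07), so the columns did not give the same answer for this pair. The current RefSeq span of *POLR1C*, a subunit gene of RNA polymerases I and III, overlaps that of *XPO5* by 40074 bases on the opposite strand. Reads were counted with respect to strand. *POLR1C* was at −0.60 (SE 0.132, adjusted p = 4.05e-05, limma voom).

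**Figure D4:**
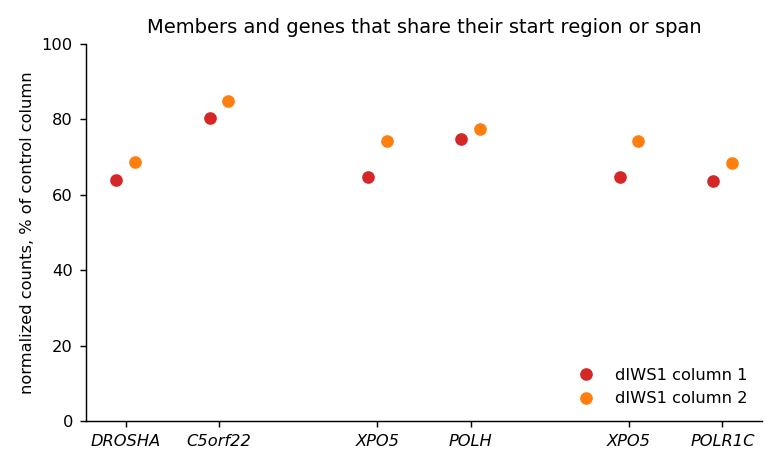
Normalized counts of the 2 dIWS1 columns as a percentage of the control column (y axis, from 0 to 100) for DROSHA and XPO5 beside the genes that share their start region (C5orf22, POLH) or overlap their span (POLR1C). Both points of DROSHA (63.9% and 68.6%) lie below both points of C5orf22, and the points of XPO5 lie at 64.7% and 74.3%.

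The nearest listed genes beside the other members were also below the control column, as were 93.0% of all genes tested in both dIWS1 columns. Of all genes tested, 65.7% were called lower. Next to *AGO2* on the same chromosome were *CHRAC1* (log2 fold change −0.32, adjusted p = 0.0566, limma voom, not called) and, at 565 kb, *SLC45A4* (−0.41, called lower). *TNRC6A* stood between *RBBP6* (−0.46) and *ARHGAP17* (−0.40), both called lower and near the value of *TNRC6A* itself. *TNRC6B* stood between *GRAP2* (−0.55) and *MKL1* (−0.62), and *TNRC6C* between *SEPT9* (−0.83, at 457 kb) and *TMC8* (−0.82), all 4 called lower. *TMC8* had few reads, 115 in the control and 73 and 51 in columns 1 and 2, with log2 ratios of −0.63 and −1.04. The remaining neighbours, *YIPF3* beside *XPO5* (−0.46) and *LOC101929660* at 2228 kb from *DROSHA* (−0.72), were called lower as well. No microRNA gene of RefSeq lies inside the span of a listed member.

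A list of 55 other genes of the pathway covered cofactors, loading chaperones, turnover enzymes and silencing partners, and 42 of them were in the table. Of these, 29 were called lower (69.0%, against 65.7% of all genes tested), 0 were called higher and 13 were not called (limma voom). On the spike-in scale no gene of the list was above 0, so none was higher at an unadjusted p under 0.05 either, while scaling by total reads gave 3 lower and 9 higher calls. The median log2 fold change was −0.36, with −0.44 in column 1 and −0.32 in column 2, and 26 of the 42 genes were above the median gene. By a fixed rule, the 3 lowest and 3 highest genes of the list are described.

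The 3 lowest encode mRNA decay enzymes and a repressor of translation. *PARN*, which encodes a poly(A)-specific ribonuclease, had 13635 reads in the control and 6600 and 7017 in columns 1 and 2. Its log2 fold change was −0.92 (SE 0.147, adjusted p = 1.15e-08, limma voom), below that of every listed member. After recentring on the median gene it was −0.51 (adjusted p = 0.0121), the only call of the list on that scale. *GIGYF2*, a partner of the cap-binding repressor EIF4E2, was at −0.77 (10691, 5886 and 6009 reads), and *XRN1*, the cytoplasmic 5′ to 3′ exonuclease, at −0.59 (6118, 3842 and 3843 reads).

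The 3 highest were not called. *TSN*, the translin subunit of an RNA-cleaving complex, was at −0.10 (adjusted p = 0.503, limma voom) with 842 reads in the control and 700 and 794 in columns 1 and 2. *PRKRA*, whose product PACT binds DICER1, was at −0.10 (adjusted p = 0.487) and *NCBP1*, a cap-binding complex subunit, at −0.12 (adjusted p = 0.454). Their reads were 790, 676 and 721 for *PRKRA* and 5466, 4665 and 4842 for *NCBP1*. In *TSN* and *PRKRA*, column 2 was slightly above the control column (log2 ratios 0.05 and 0.00).

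**Figure D5:**
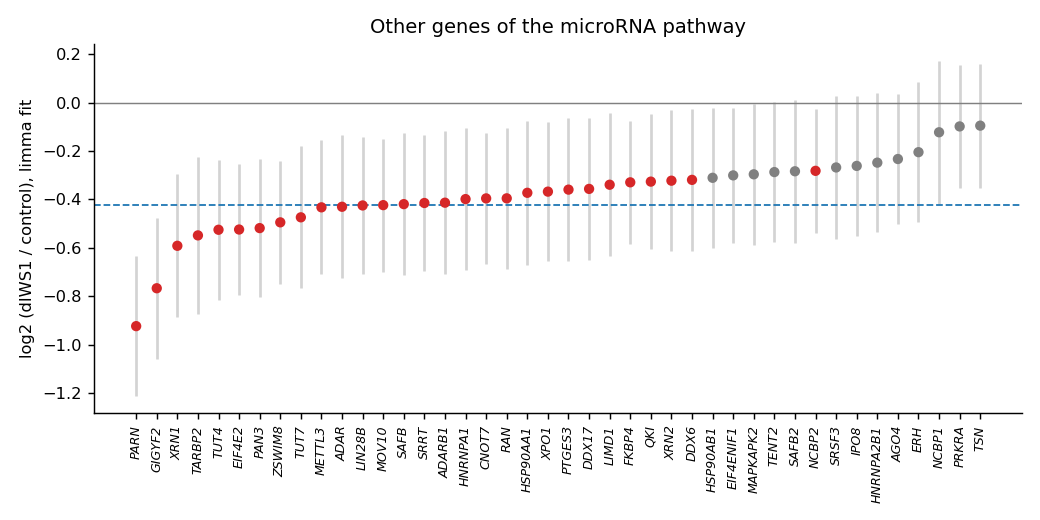
Log2 fold change (y axis) of the 42 other pathway genes in the table, in ascending order, with 95% intervals from the limma fit. Red points were called lower (29 genes) and grey points were not called (13 genes), the dashed line marks the median of all genes tested (−0.42), and the values run from −0.92 for PARN to −0.10 for TSN.

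Of 53 names listed for genes with microRNA hairpins in their span, 2 were in the table, and both were called lower, as were 65.7% of all genes tested. The strand of the hairpins was not checked, so these counts need not follow a transcript that holds one. *IARS2* lay below and *VMP1* above the median gene. *IARS2*, the mitochondrial isoleucyl-tRNA synthetase gene, was at −0.51 (adjusted p = 0.00203, limma voom), with 3529 reads in the control and 2388 and 2314 in columns 1 and 2. *VMP1*, a gene of autophagosome formation was at −0.37 (adjusted p = 0.0204), with 12712, 8924 and 9709 reads. The other names of this list were not analysed here.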

How the data were processed

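The authors aligned TT-seq reads of K562 cells with STAR (2.6.0) to a GRCh38 reference that included the spike-ins, without multimapping reads, counted read pairs per RefSeq gene by strand, left out overlapping genes and genes of low density, and ran DESeq2 with spike-in size factors. Per the file header, the deposited table holds a signal per gene, which is the average of the size-factor-normalized counts of its library columns. It also holds the authors' comparison in deposited log2 units with its standard error, statistic, p-value and adjusted p-value. None of these is reported. The deposited log2 fold change was used only to decide which recovered columns belong to which side, since the table does not name them, and the study gives the direction as dIWS1/control. With the column entered 2 times as control, the recovered ratios came within 0.00133 of the deposited ones in 4905 genes.

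Whole reads per column were recovered from the mean alone, as multiples of 3 steps, with a relative tolerance of 6e-15. A single solution was found for 10111 of 10136 genes with a mean above 0 (99.75%), and the rest were left out. The recovery and the fit were tested on simulated data. Size factors were 1.01 (control), 0.993 and 0.919, over 28352252, 19715709 and 19942890 reads in genes. Each gene's log2 fold change came from limma voom (3.58.1, R 4.3.3) with spike-in library sizes, for the 9892 genes whose mean was 10 or more, with Benjamini-Hochberg adjustment and a threshold of 0.05. The estimated spread was common to all genes. The test planned for a table of raw counts was not used, since the table holds means. The study describes the samples as biological replicates, and the p-values rest on the spread between the dIWS1 columns alone. Counting intervals are at 95% and cover counting error only.

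Gene spans came from RefSeq (GRCh38.p14), matched by symbol (9353 genes), gene number (169) or older name (576), with 49 unmatched. Exons and strands came from GENCODE release 44. Both are of the authors' build, but the RefSeq release they counted on is not given in the sources used here. The members and lists were chosen with earlier results of these data known. The genes named are the members, the 3 lowest and 3 highest of each list with a mean of at least 100, the nearest listed genes beside a member, and IWS1. AGO4 was added later. Alternatives were other scalings, low-value filters, thresholds, pseudocounts, a minimum change, the control column entered 2 times and each dIWS1 column alone. Python 3.11.15 with numpy 2.4.6 and pandas 2.3.3 was used.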

Additional observations from a re-analysis of the deposited data

How the results depend on the processing

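All 66 values of the 6 members under other scalings, filters, fits, thresholds and single columns stayed below 0. Values under other thresholds repeat the main estimate by construction, and filters and pseudocounts hardly moved it. Of the 66 values, 58 kept their side of the threshold or gave a value with no test, and 8 lost the call. Recentring removed 6 of these calls, and total reads the others (*XPO5* at −0.09, adjusted p = 0.255, and *TNRC6A* at −0.02, adjusted p = 0.775, limma voom). A minimum change of 0.5 left 5 of the 6 called, without *TNRC6A*. *AGO4* went to 0.18 after recentring and to 0.20 with total reads, and was called lower with the control column entered 2 times (−0.23, adjusted p = 0.0157). Over all genes, the 6496 lower and 10 higher calls became 532 and 264 when recentred and 1483 and 1895 with total reads, and 3725 and 3 with a minimum change of 0.5. Higher calls were 46 with the control column entered 2 times, 6 at an adjusted p under 0.01 and 18 under 0.1. Of the members, 0 were called when recentred. Their median of −0.60 became −0.19 when recentred and −0.17 with total reads, by construction of the scalings. It ran from −0.68 to −0.53 with either dIWS1 column alone, which leaves no residual degree of freedom and no test.

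The 29 lower calls of the other pathway genes became 1 when recentred, 3 with total reads (and 9 higher), 19 with limma trend at a pseudocount of 0.5 or 5, 15 at an adjusted p under 0.01 and 7 with a minimum change of 0.5. The 2 lower calls of the microRNA hairpin list became 0 when recentred or with total reads. They became 1 with limma trend at either pseudocount, at an adjusted p under 0.01 and with a minimum change of 0.5. The cause was not tested. Counted by place in the order of levels, 1 of the 6 members kept its place per kb of exon and 3 kept it per kb of canonical transcript. No paired analysis was possible because the recovered columns carry no replicate number. With 1 control column the spread between controls is unknown, and the fit takes it to be that of the dIWS1 columns. No control column could be left out.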
